A study of Triticum aestivum with 96 samples.

Results

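Untreated crowns of the Norstar and the Manitou genetic background were compared at 0 days, that is, before any cold. The crown is the short stem region near the soil surface that holds the shoot apical meristem, and its survival decides that of the plant in winter. All arrays taken at 0 days were used, 12 of the 96 arrays of the series, of which 6 were Norstar and 6 were Manitou. Norstar is a cold-hardy winter cultivar and Manitou a tender spring cultivar of hexaploid wheat (Triticum aestivum). There were 4 lines with 3 arrays each, because both cultivars were joined by a near isogenic line for the Vrn-A1 locus. Winter Norstar, the cultivar itself, has the recessive vrn-A1 allele, whereas spring Norstar had received the dominant Vrn-A1 from Manitou. Spring Manitou, also the cultivar itself, has Vrn-A1, whereas winter Manitou had received vrn-A1 from Norstar. All lines were seedlings at the 3-leaf stage, and each array measured RNA from a pool of crowns on the Affymetrix Wheat GeneChip. The near isogenic lines came from repeated backcrossing with selection at Vrn-A1, so donor segments around that locus may remain, and each background is 1 cultivar.

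Cold acclimation is the gain of freezing tolerance under low, non-freezing temperature. It depends on cold-regulated (COR) proteins, dehydrins and other late embryogenesis abundant (LEA) proteins that protect membranes and proteins, and their genes lie downstream of CBF transcription factors. The spring allele of Vrn-A1, a MADS-box gene that promotes the change of the apex from vegetative to reproductive growth, is active without cold, whereas the winter allele requires vernalization. The comparison at 0 days asks which transcripts already differed between a hardy and a tender background before the cold, with habit as the second factor.

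The values were log2 RMA signals, in which a difference of 1 is a 2-fold difference in signal. They ran from 2.16 to 14.61 at 0 days, and the medians of the arrays lay between 5.72 and 5.75. A probeset was tested where the mean of at least 1 line reached a log2 value of 5, which left 30709 (50.2%) of 61179. The first principal component held 58.6% of the variance and separated the backgrounds completely, and the second held 22.1% and set the 4 arrays of replicate 2 apart from replicates 1 and 3 in all 4 lines. Background took 58.5% of the variation among the 12 arrays, habit 2.98%, their interaction 1.97% and the replicate number 25.1%. Arrays correlated at 0.929 to 0.958 across probesets between backgrounds, at 0.965 to 0.995 between habits within a background and at 0.969 to 0.994 within a line. The arrays of replicate 2 thus stood apart from the rest, and they did so in both backgrounds alike.

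**Figure D1:**
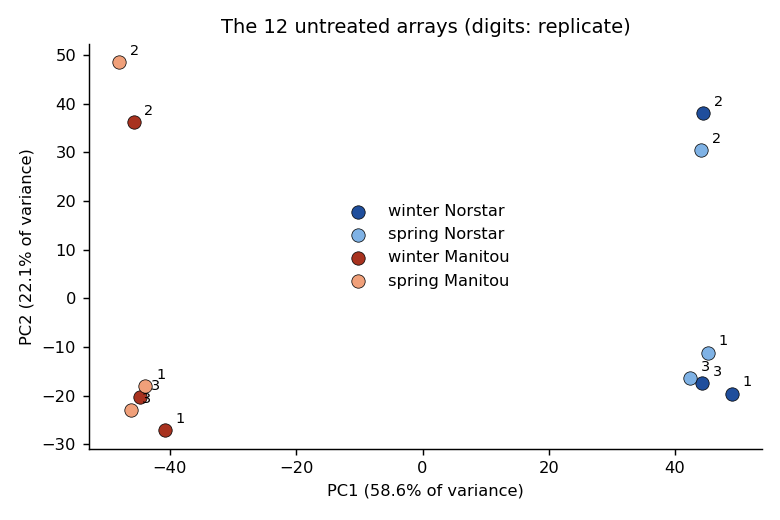
Principal components of the 12 untreated arrays over the 30709 probesets tested, with PC1 and PC2 in percent of variance on the axes, colour for the line and a digit for the replicate. All 6 Norstar arrays lie on the right and all 6 Manitou arrays on the left, and the 4 arrays of replicate 2 lie at the top.

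At 0 days 619 probesets (2.02% of those tested) were higher in the Norstar background and 499 (1.62%) were higher in the Manitou background, at an adjusted p under 0.01 in limma and a difference of at least 2-fold. Together these were 1118 probesets (3.64%). The arrays of the backgrounds did not overlap on 99.0% of those higher in Norstar and on 475 (95.2%) of those higher in Manitou, against 12.3% of all tested probesets. With no limit on the size, 3671 probesets (12.0%) passed the adjusted p. The habit contrast, winter minus spring lines over both backgrounds, called 3 probesets (0.00977%) at the same thresholds, and 1675 had an unadjusted p under 0.05, against 9219 for background. The 3 were Vrn-A1 (-4.25, adjusted p = 3.2e-05) and 2 probesets without a name with positive values (1.36 and 1.13, adjusted p = 0.00057 and 0.0014), of which the first was high in winter Norstar alone (7.37, against means of 4.01 to 4.66 in the other 3 lines). Without the arrays of replicate 2 the counts were 629 higher in Norstar and 506 higher in Manitou. With the replicate number as a block they were 630 and 551, and 5229 probesets passed at any size.

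In the Norstar direction 268 probesets differed at least 4-fold, 52 at least 16-fold and 7 at least 64-fold, and in the Manitou direction 166, 29 and 6 did. Of the 619 probesets higher in Norstar, 202 (32.6%) lay under a log2 value of 5 on all 6 Manitou arrays, and 24 of them lay at 8 or above on all 6 Norstar arrays. Of the 499 higher in Manitou, 143 (28.7%) lay under 5 on all 6 Norstar arrays, and 16 of these lay at 8 or above on all 6 Manitou arrays. No present or absent call was used here, and a signal under 5 is near the lower end of the scale, so the size of these differences is one of signal and not of transcript number. A transcript at a lower level and a transcript whose sequence differs from the probes in 1 cultivar cannot be told apart on the array, and in bulk crowns fewer cells of a type and less RNA per cell cannot be told apart either.

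The same contrast was taken separately in winter and spring lines, which share no array. Both contrasts came from the same fit, with a shared estimate of the spread per probeset, and same-numbered arrays deviated together across lines. The overlap of their calls is therefore not that of independent tests. Winter Norstar minus winter Manitou called 1019 probesets (3.32%), 602 (1.96%) higher in Norstar and 417 (1.36%) higher in Manitou. Spring Norstar minus spring Manitou called 1033 (3.36%), 581 (1.89%) higher in Norstar and 452 (1.47%) higher in Manitou. Of the 1019 winter calls, 1017 had the same sign in the spring lines and 893 were called there too, which is 87.6% of the winter and 86.4% of the spring calls, and 0 were called with opposite signs. Over the 1159 probesets called in either pair the differences correlated at r = 0.988 across probesets, which are not independent and were chosen here for a large difference, against 0.936 over all 30709 tested, and the median gap between the pairs was 0.19 on the log2 scale. For these probesets the background difference was therefore close in the lines with vrn-A1 and in those with Vrn-A1.

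**Figure D2:**
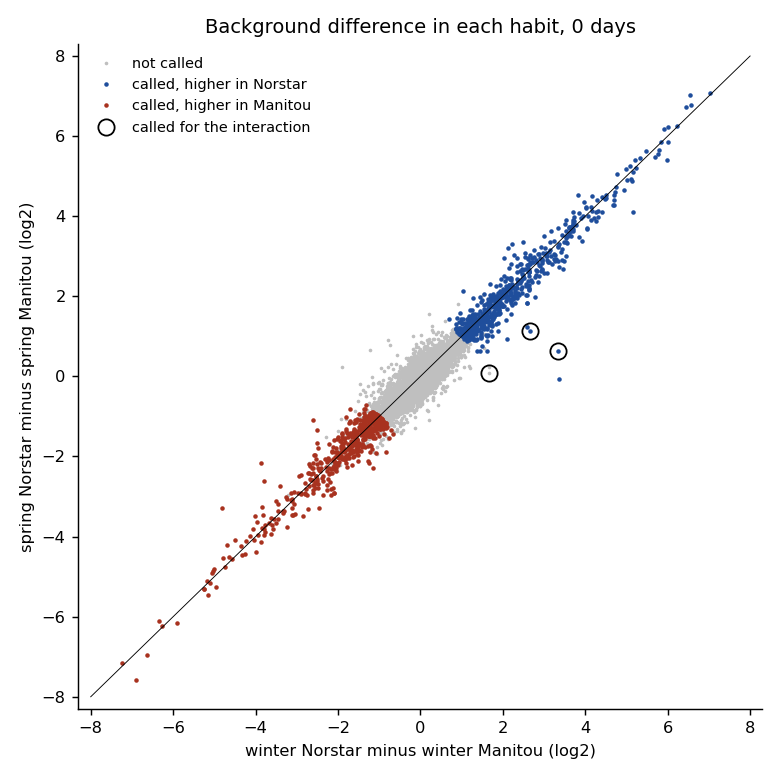
Difference between the backgrounds in the spring lines (y axis, log2) against that in the winter lines (x axis, log2) for each of the 30709 probesets tested at 0 days, with the line of equal difference. The 1118 called probesets are coloured by direction and mostly follow the line, and the 3 ringed probesets called for the interaction lie to its right.

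Among the named probesets, the largest difference in the Norstar direction was that of a WRKY4 transcription factor, a member of a plant family of regulators of stress and defence genes. Its signal was 8.96, 11.94 and 8.91 in winter Norstar and 9.36, 11.56 and 9.32 in spring Norstar, against 4.51 to 4.77 on the 6 Manitou arrays. The difference was 5.40 ± 0.54 (SE, log2; adjusted p = 2.6e-05 in limma). Replicate 2 was the brightest array of both Norstar lines, and the lowest Norstar array still lay more than 4 log2 units above the highest Manitou array. The other tested probeset that shares the leading number of the WRKY4 probeset was not called (-0.53, adjusted p = 0.67 in limma).

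A Bowman-Birk type trypsin inhibitor, a small inhibitor of serine proteases, ranged from 8.17 to 9.77 (median 9.24) in Norstar and from 3.50 to 4.20 (median 3.99) in Manitou, a difference of 5.08 ± 0.28 (adjusted p = 1.8e-07). A LEA group 1 transcript ranged from 7.86 to 9.56 (median 8.62) in Norstar and from 3.60 to 4.07 (median 3.83) in Manitou, a difference of 4.80 ± 0.25 (adjusted p = 9.3e-08). A further LEA group 1 probeset differed by 4.62 ± 0.20 (adjusted p = 1.7e-08). Both LEA probesets were near the lower end of the scale in every Manitou array and clearly above it in every Norstar array.

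Cytochrome P450 86A1, which in Arabidopsis belongs to a family of fatty acid hydroxylases that act in suberin formation, was 3.97 higher in Norstar (8.67 to 9.31 against 4.36 to 5.71). An O-methyltransferase family member was 3.58 higher, beta-galactosidase 4 3.31 and a pathogen-related protein 3.18. ALMT1 (chromosome 4D in the RefSeq annotation of Chinese Spring), the malate channel known in wheat for aluminium tolerance of the root tip, ranged from 7.10 to 8.20 (median 7.59) in Norstar and from 4.29 to 4.70 (median 4.60) in Manitou, a difference of 3.11 ± 0.15 (adjusted p = 5.6e-08). The others among the 15 largest named differences were a zinc-binding protein (3.09), a Rubisco small subunit N-methyltransferase (3.05), a light-induced protein 1-like (2.83), a bifunctional nuclease (2.80), a putative zinc transporter (2.70) and a subunit of nuclear transcription factor Y (2.69). The light-induced protein lay between 3.93 and 7.03 in Norstar, with replicate 2 the lowest array of both lines, and its call was lost without replicate 1 or without replicate 3 (adjusted p = 0.094 and 0.051).

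In the Manitou direction the largest named difference was that of CI2C, a name used for chymotrypsin inhibitors of the cereal CI-2 family. Its signal was 10.76, 11.40 and 10.14 in winter Manitou and 11.47, 11.85 and 11.01 in spring Manitou, against 3.72 to 4.09 on the 6 Norstar arrays. The difference was -7.24 ± 0.20 (adjusted p = 5.6e-10), 152-fold in signal. A further probeset with the name CI2C differed by -2.28 (adjusted p = 5.9e-09).

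A serine/arginine repetitive matrix protein 1, named after a splicing cofactor, was 5.27 lower in Norstar (5.33 to 5.92 against 10.63 to 11.14). A receptor protein kinase ranged from 4.30 to 4.96 in Norstar and from 9.07 to 9.63 in Manitou, a difference of -4.76 ± 0.12 (adjusted p = 3.3e-10). An amylase inhibitor-like protein ranged from 5.78 to 8.47 (median 7.30) in Norstar and from 10.47 to 11.97 (median 11.61) in Manitou, a difference of -4.29 ± 0.28. These 3 probesets did not overlap between backgrounds, and the amylase inhibitor-like transcript varied most within Norstar.

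Next in size were a stress-related protein-like transcript (-3.64), a cytochrome P450 (-3.41), a selenium-binding protein-like transcript (-3.33) and an NBS-LRR class resistance gene analogue (-2.87), which belongs to the main family of plant immune receptors. The powdery mildew resistance protein PM3A, of the same family, ranged from 3.36 to 3.79 (median 3.45) in Norstar and from 6.03 to 6.43 (median 6.20) in Manitou, a difference of -2.72 ± 0.09 (adjusted p = 1.3e-09). Genes of this family have near-identical copies that may share probes, so the copy measured is uncertain. The remaining 6 of the 15 were a glycine-rich cell wall structural protein (-2.68), a ubiquitin carboxyl-terminal hydrolase (-2.61), a reticulon domain protein (-2.56), a jacalin-like lectin (-2.53), a serine/threonine protein kinase (-2.51) and an O-methyltransferase 2 (-2.49). The calls of the lectin and of the kinase did not hold without replicate 1 and without replicate 3, respectively (adjusted p = 0.010 and 0.016).

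**Figure D3:**
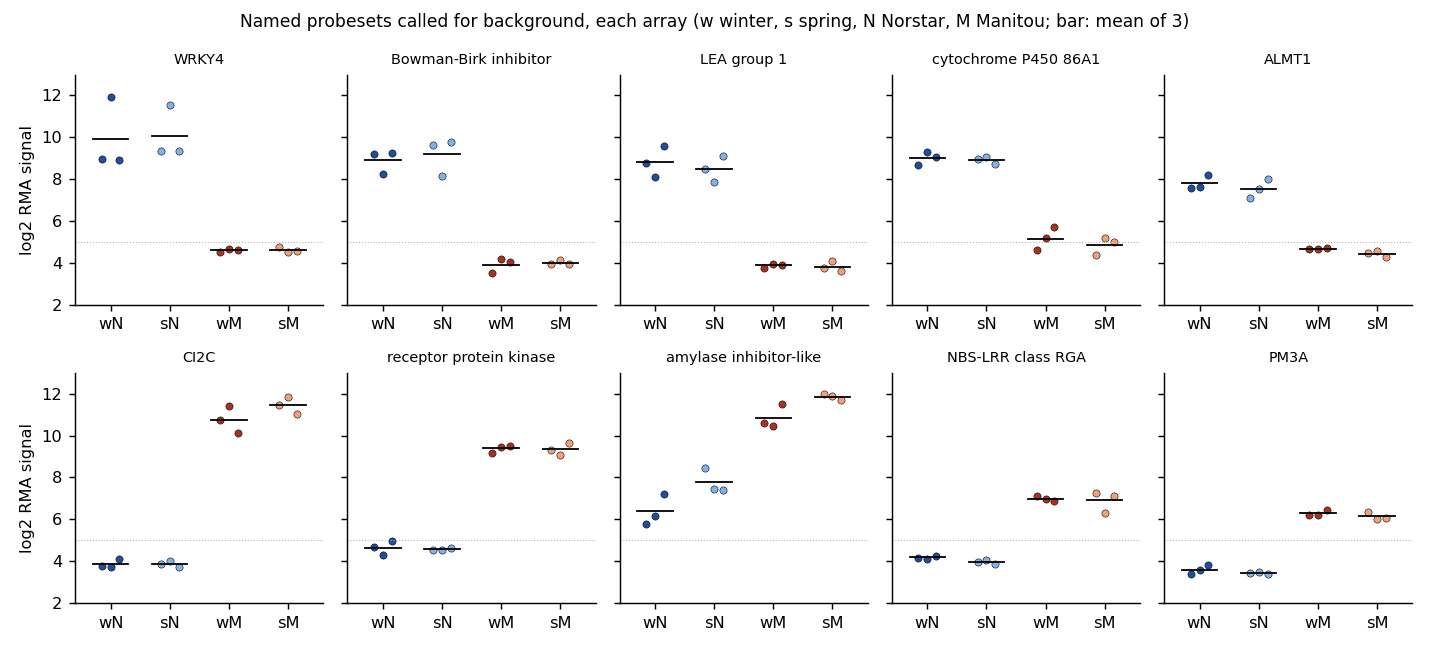
Log2 RMA signal of 10 named probesets on each of the 12 untreated arrays (points, 3 per line) with the mean of each line (bar); the dotted line is the brightness limit of 5. The 5 probesets in the upper row lie higher on all 6 Norstar arrays and the 5 in the lower row on all 6 Manitou arrays, with no overlap.

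The very largest differences in the Norstar direction belonged to probesets for which no gene name was at hand. The first of them lay between 10.54 and 10.84 in Norstar and between 3.37 and 3.86 in Manitou (7.06 ± 0.08, adjusted p = 9.1e-13), 133-fold in signal, and the next 4 were 6.78, 6.67, 6.58 and 6.25 higher in Norstar. In the Manitou direction the first unnamed probeset, second in size to CI2C, lay between 3.25 and 3.58 in Norstar and between 10.39 and 10.82 in Manitou (-7.19 ± 0.08, adjusted p = 9.1e-13), and the next 4 differed by -6.79, -6.26, -6.22 and -6.03. On each of these 10 probesets every array of 1 background lay at 6.01 or below and every array of the other at 9.13 or above.

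Named probesets were grouped by patterns in their names. Most names came from descriptions of a gene list that the study selected on the arrays of this series. It required effects of genotype, of the duration of cold and of their interaction, so the shares are not independent evidence. Of the 1638 tested probesets of that list 12.6% were called, against 3.64% of all. Of the 720 tested probesets of the platform annotation, which was not selected on these arrays, 2.50% were called. No test of a group was made. Of 16 inhibitors of proteases, amylases and xylanase, 1 was higher in Norstar and 8 were higher in Manitou, with a median difference of -0.71 against 0.008 over all probesets. Beside CI2C and the amylase inhibitor-like protein these were a trypsin inhibitor (-1.96), a further amylase inhibitor-like protein (-1.68), the subtilisin-chymotrypsin inhibitor CI-1B (-1.55), a Bowman-Birk trypsin inhibitor-like protein (-1.32) and the xylanase inhibitor gene xip (-1.12). The name of xip came from the platform annotation. It was not in the part of the selected list held here, which does not show that the full list lacks it. The Bowman-Birk inhibitor described above was the only called member in the opposite direction.

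Of 47 probesets for cytochrome P450s and enzymes of secondary metabolism, 3 were higher in Norstar and 12 were higher in Manitou (median -0.36). All 47 were in the selected list, and 31.9% were called, against 12.6% of that list and 3.64% of all tested probesets. O-methyltransferases, which methylate phenolic compounds such as lignin precursors, went both ways: 2 of 11 were higher in Norstar (3.58 and 1.86) and 5 were higher in Manitou (-2.49 to -1.17). Among 15 cytochrome P450s 1 was higher in Norstar and 4 were higher in Manitou. Others higher in Manitou were the glucosyltransferase BX9 (-1.31), named for benzoxazinoid defence compounds, a glycosyltransferase 6 (-2.39) and a cinnamyl alcohol dehydrogenase of lignin synthesis (-1.21). The probesets for chalcone synthase, the entry enzyme of flavonoid synthesis, had values of -0.99 and -0.95 with adjusted p of 0.0014 and 0.00051, just short of the 2-fold limit.

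Of 14 disease resistance genes and receptor kinases, 1 was higher in Norstar (an inactive receptor kinase, 1.30) and 3 were higher in Manitou, as given above. All 14 were in the selected list, and 28.6% were called, against 12.6% of that list and 3.64% of all. A called probeset named resistance protein LR10 (-1.33) was not matched by the name patterns and is left out of the 14. Among 7 thionins and defensins, small antimicrobial peptides, 3 were higher in Norstar and 0 in Manitou. A defensin ranged from 9.22 to 9.94 in Norstar and from 7.51 to 8.01 in Manitou (1.98 ± 0.09, adjusted p = 3.6e-08), and a gamma-thionin from 6.78 to 9.17 and from 5.39 to 6.40 (1.91 ± 0.18, adjusted p = 1.6e-05). Gamma-1-purothionin differed by 1.04 ± 0.11, which fell to 0.94 without winter Norstar replicate 3, below the 2-fold limit. Together with the pathogen-related protein they made 4 of 41 defence peptides and pathogenesis-related proteins that were higher in Norstar. A called probeset with the name CsAtPR5 (2.17) was not matched by the name patterns and is left out of the 41. Of the 41, 12.2% were called in either direction, against 12.6% of the selected list. The 1 member called in the opposite direction, a glucan endo-1,3-beta-glucosidase (-1.42, adjusted p = 0.0046), missed the thresholds in 6 of the 12 fits that left out 1 array.

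Of 54 transport genes, 5 were higher in Norstar and 2 were higher in Manitou. This share of 13% lay near the 12.6% of the selected list. Beside ALMT1 and the zinc transporter, the 5 included 3 of the 8 aquaporins and water channels, 2 PIP2 aquaporins (1.5 ± 0.25 and 1.33 ± 0.15) and the water channel protein MipH (1.37 ± 0.15). An ABC transporter was higher in Manitou (-1.40 ± 0.15). Of 38 cell wall genes 13.2% were called, which was also near the share of the selected list. Higher in Norstar were 2, expansin EXPB9 (1.87), a protein that loosens walls, and a hydroxyproline-rich glycoprotein (1.67). Higher in Manitou were 3, 2 glycine-rich wall proteins (-2.68 and -2.0) and a laccase (-1.87). Among 39 antioxidant and glutathione genes glutathione S-transferase 1, which conjugates toxic compounds, was the only call (7.11 to 8.74 in Norstar against 9.33 to 10.26 in Manitou, -2.25 ± 0.27, adjusted p = 0.00012, and 0.010 without replicate 1).

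Of 14 tested cold-regulated probesets 0 were called in limma, 3 had an adjusted p under 0.01 with smaller differences, all higher in Norstar, and 10 had an unadjusted p under 0.05. Over all 30709 tested probesets 3.64% were called and 9219 had an unadjusted p under 0.05. Of the 1638 in the selected list 12.6% were called and 889 had an unadjusted p under 0.05. With so few members, a count of 0 is not a result about the list. The 3 were WCOR518 (0.86 ± 0.15 and 0.66 on 2 of its 3 tested probesets), a cold acclimation protein, and the low temperature-induced protein lt101.2 (0.61). COR14a, a chloroplast cold protein, was 5.93, 5.05 and 6.68 in winter Norstar, 5.41, 5.55 and 5.65 in spring Norstar, 4.42, 4.63 and 5.32 in winter Manitou and 5.00, 4.43 and 4.45 in spring Manitou. The difference was 1.00 (95% interval 0.44 to 1.56, adjusted p = 0.018), and with the replicate number as a block the adjusted p was 0.0064, which is a call. Without winter Norstar replicate 2 it was 1.21 (adjusted p = 0.0018). BLT14.1 differed by 0.11 (-0.37 to 0.59) and BLT14.2 by 0.16 (-0.17 to 0.49).

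COR14b, the dehydrin WCOR726, the LEA/RAB-related COR protein, LEA29 and a further WCOR518 probeset were not tested, because no line reached a mean of 5. WCOR726 lay between 3.40 and 4.28 in Norstar and between 2.91 and 3.49 in Manitou, and COR14b between 3.36 and 4.43 and between 3.48 and 4.50. The backgrounds overlapped for both, and both transcripts were dim in all 4 lines.

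Of 17 tested dehydrin and LEA probesets, 3 (17.6%, against 12.6% of the selected list) were higher in Norstar, the LEA group 1 pair above and a dehydrin (1.53 ± 0.18, adjusted p = 8.7e-05; 0.015 without replicate 3), although the median of the group was -0.19. Another dehydrin had signals of 4.82, 4.56 and 5.44 in winter Norstar, 5.06, 4.40 and 5.72 in spring Norstar, 6.46, 5.77 and 6.62 in winter Manitou and 6.38, 5.40 and 6.75 in spring Manitou. The difference of -1.23 (-1.87 to -0.59) had an adjusted p of 0.012, and with the replicate block it was called, at 6.7e-06, as was a LEA group 1 probeset (-1.21, adjusted p = 0.014 and 1.8e-05 with the block). For the dehydrin, the call also appeared without spring Norstar replicate 3 and without spring Manitou replicate 2 (adjusted p = 0.0067 and 0.0036).

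Among 6 tested flowering and MADS probesets 0 were called for background in limma, and 2 had an unadjusted p under 0.05. Over all 30709 tested probesets these were 3.64% and 9219, so 0 of 6 is not a result about the list. Vrn-A1 was 5.14, 5.50 and 5.61 in winter Norstar and 4.38, 5.97 and 5.30 in winter Manitou, and 9.56, 9.33 and 9.58 in spring Norstar and 9.78, 9.47 and 9.72 in spring Manitou. Winter minus spring lines differed by -4.25 (adjusted p = 3.2e-05), whereas the backgrounds differed by 0.02 (-0.46 to 0.50, adjusted p = 0.97). Vrt1 stayed between 3.56 and 4.50 on all 12 arrays and was not tested. The flowering promoting factor-like gene was 8.56, 8.77 and 8.12 in winter Norstar, 6.24, 7.85 and 6.37 in winter Manitou, and between 4.85 and 5.84 in the spring lines. Its background difference of 0.94 (0.34 to 1.55, adjusted p = 0.035) became 1.20 (adjusted p = 0.00093) without winter Manitou replicate 2. Among the CBF and AP2/ERF names, CBFIVb-A20 differed by 0.43 (-0.23 to 1.09, adjusted p = 0.39) and an AP2 domain protein by -0.59 (adjusted p = 4.9e-05), and an ethylene-responsive protein lay on the 2-fold limit (-1.0 ± 0.09), which it missed without any 1 of 5 of the 12 arrays.

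**Figure D4:**
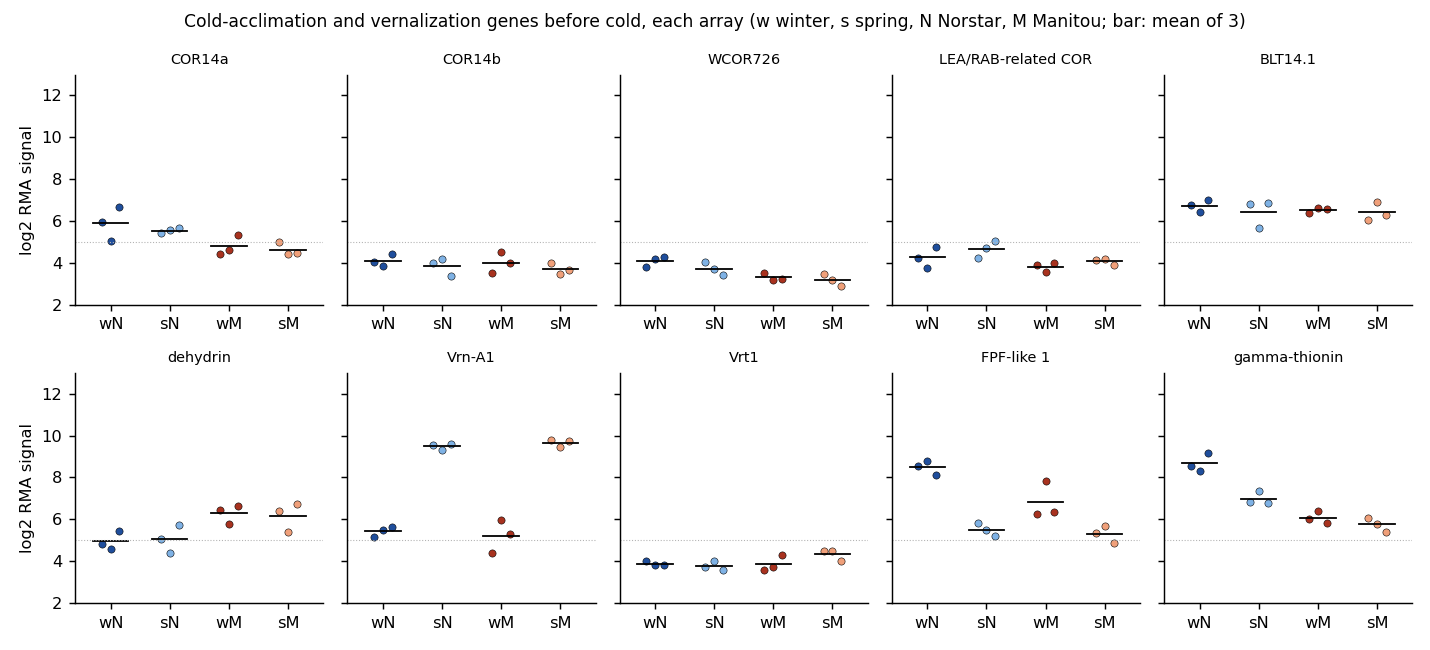
Log2 RMA signal of 10 cold-acclimation, vernalization and defence genes on each of the 12 untreated arrays (points, 3 per line) with the mean of each line (bar); the dotted line is the brightness limit of 5. Vrn-A1 separates spring from winter lines in both backgrounds alike, COR14b, WCOR726, LEA/RAB-related COR and Vrt1 lie mostly under the limit, and gamma-thionin is highest in winter Norstar.

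Lists of markers for tissues that a crown sample can hold were also counted, beside the 3.64% called over all tested probesets. Most of these markers were named from the selected gene list, of which 12.6% were called. Of 37 tested photosynthesis probesets, the markers of green leaf base, 1 was higher in Norstar and 1 in Manitou (median -0.02), and the 9 chlorophyll a-b binding probesets differed by -0.18 to 0.37. Of 40 histone probesets and 37 for DNA replication and the cell cycle, the markers of dividing meristem, 1 and 0 were called, with medians of 0.13 and 0.13. Of the photosynthesis, histone and replication probesets, 11, 30 and 26 had an unadjusted p under 0.05 in limma, against 9219 of all 30709. At an adjusted p under 0.01 and any size, 8 replication probesets were higher in Norstar and 2 in Manitou, and for histones 4 and 4. The called histone was an H3, which ranged from 11.05 to 11.39 in Norstar and from 9.18 to 9.52 in Manitou (1.87 ± 0.06, adjusted p = 3.1e-09), whereas the 7 histone H3 probesets had a median of 0.13. The lists of ribosomal (17), heat shock and chaperone (11) and fructan and sucrose genes (15) held 0 calls in limma, with 10, 4 and 5 at an unadjusted p under 0.05. In the fructan list fructan exohydrolase, which breaks down stored fructans, was nearest at -0.99 ± 0.12 (adjusted p = 9.5e-05), and it passed the 2-fold limit when winter Norstar, winter Manitou or spring Manitou replicate 3 was left out (-1.05, -1.07 and -1.01).

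The background difference itself differed between winter and spring lines on 3 probesets (0.00977%; 1206 had an unadjusted p under 0.05), all without a gene name and all high in winter Norstar alone or most. The first was 7.34, 7.33 and 7.43 in winter Norstar, 4.45, 4.58 and 4.94 in spring Norstar and between 3.82 and 4.24 in both Manitou lines, an interaction of 2.69 (adjusted p = 0.0013). The next was 5.97, 6.05 and 6.34 in winter Norstar and between 4.28 and 4.52 on the other 9 arrays (1.58, adjusted p = 0.0040). The last was 6.96, 7.07 and 7.08 in winter Norstar, 5.79, 5.41 and 5.61 in spring Norstar and between 4.26 and 4.52 in Manitou (1.54, adjusted p = 0.0040). The count was 0 without the arrays of replicate 1, 2 or 3. Leaving out any 1 of the 12 arrays lowered it to 1 or 2, with 1 left without winter Norstar replicate 2, winter Manitou replicate 1, 2 or 3, spring Norstar replicate 3, or spring Manitou replicate 1 or 3. The gamma-thionin stood 2.60 higher in winter Norstar than in winter Manitou and 1.23 higher in spring Norstar than in spring Manitou, with an adjusted p of 1.0 for the interaction.

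Different probesets of a cluster, which share the leading number of their name and so were designed on similar transcripts such as the copies of a gene in the 3 subgenomes, were compared with each other. Of the called probesets 283 had at least 1 other tested probeset in their cluster, 505 distinct pairs in all, of which 173 (34.3%) came from 3 large clusters. Both were called in the same direction in 44 pairs (8.71%) and in opposite directions in 7 (1.39%), and the other was not called in 454 (89.9%). In 78 pairs (15.4%) the uncalled probeset had the same sign at an adjusted p under 0.01 and was below the 2-fold limit. The opposite calls lay in 7 clusters. In the cluster of a putative diphosphonucleotide phosphatase one probeset differed by -2.45 and another by 3.80, and in a cluster without a gene name the values were -1.06 and 3.88. Both examples were chosen after their values were seen. The cluster of the LEA group 1 probeset that differed by 4.62 had 3 other tested probesets, at 0.46, -0.09 and -1.21. Uncalled probesets also stood at 0.12 beside the Bowman-Birk type inhibitor, -0.86 beside the bifunctional nuclease, and 0.28 and 0.14 beside glutathione S-transferase 1. Others stood at -0.25 beside cytochrome P450 86A1, 0.52 beside the O-methyltransferase family member and -0.05 beside the pathogen-related protein. Beside the zinc-binding, light-induced and stress-related proteins and the serine/threonine kinase they stood at -0.05, -0.35, 0.21 and -0.22. In such clusters the difference is that of a single probeset. The 2 jacalin-like lectin probesets were called in the same direction.

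The 84 cold-treated arrays, which the comparison at 0 days did not use, showed whether these differences lasted. With the same thresholds 3.36%, 3.71%, 3.78%, 3.57%, 3.89%, 4.10% and 4.31% of the tested probesets were called for background on the 7 cold days in turn, from 2 to 70 days. In the same order 1.87%, 2.10%, 2.28%, 2.09%, 2.06%, 2.15% and 2.26% were higher in Norstar, and 1.5%, 1.60%, 1.5%, 1.48%, 1.83%, 1.96% and 2.05% were higher in Manitou. Of the 619 probesets higher in Norstar at 0 days, 77.4% were called the same way at 2 days and 80.8% to 82.2% from 14 to 70 days, and of the 499 higher in Manitou 70.3% and 65.1% to 72.3%. Over all 7 cold days 662 (59.2%) of the 1118 (2.16% of those tested) were called the same way on every day, 1067 (95.4%) kept their sign on every day, and 9.93% were called the same way on none.

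CI2C kept a difference of more than 6 log2 units, at -6.11 at 2 days, -7.14 at 42 days and -7.33 at 70 days, and the receptor protein kinase was at -5.18, -4.93 and -4.10. The larger LEA group 1 difference went from 4.80 at 0 days to 6.84 at 2 days, 7.89 at 42 days and 7.6 at 70 days. The difference in the Bowman-Birk inhibitor was smaller in the cold (5.08 at 0 days, then 1.46, 2.41 and 2.37), and those in the pathogen-related protein (3.18, then 0.43, 0.15 and 0.18) and the unspecified cytochrome P450 (-3.41, then -2.87, -1.74 and -0.17) were much smaller by the last day. These changes between days are given as values and were not tested. All probesets of this paragraph were in the selected gene list, chosen partly for an interaction of genotype with the duration of cold. A difference that changes between days was thus favoured by that choice.

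Only 5 probesets called at 0 days were called in the opposite direction on a later day. Wheat germ agglutinin isolectin WGA2 (1D), a chitin-binding lectin, differed by -1.11 at 0 days and 1.22 at 14 days, and a remorin, a plasma membrane protein, by 1.10 at 0 days and -1.04 at 70 days; both were named after their values were seen. The cold-regulated list, with 0 of 14 called at 0 days, had 4 higher in Norstar at 2 days and 7 at 70 days (1 higher in Manitou), with its median moving from 0.13 to 0.69 and 1.04. The dehydrin and LEA list went from 3 of 17 higher in Norstar to 6 at 2 days and 8 at 70 days. Over all tested probesets 3.64% were called in either direction at 0 days, 3.36% at 2 days and 4.31% at 70 days. Of the 2 lists, 13 of 14 and 16 of 17 tested probesets were in the selected gene list. The study chose that list partly for an interaction of genotype with the duration of cold. A difference that changes with cold was thus favoured by the choice, and the rise is not independent evidence. For both lists the counts at 0 days came from the fit to 12 arrays and the later ones from the fit to 96. At 0 days the fit to 96 arrays called 1193 probesets for background, against 1118. Both lists held only probesets bright enough at 0 days, so COR14b and WCOR726 were left out. The dehydrin that was at -1.23 before cold was at 1.73 after 2 days.

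**Figure D5:**
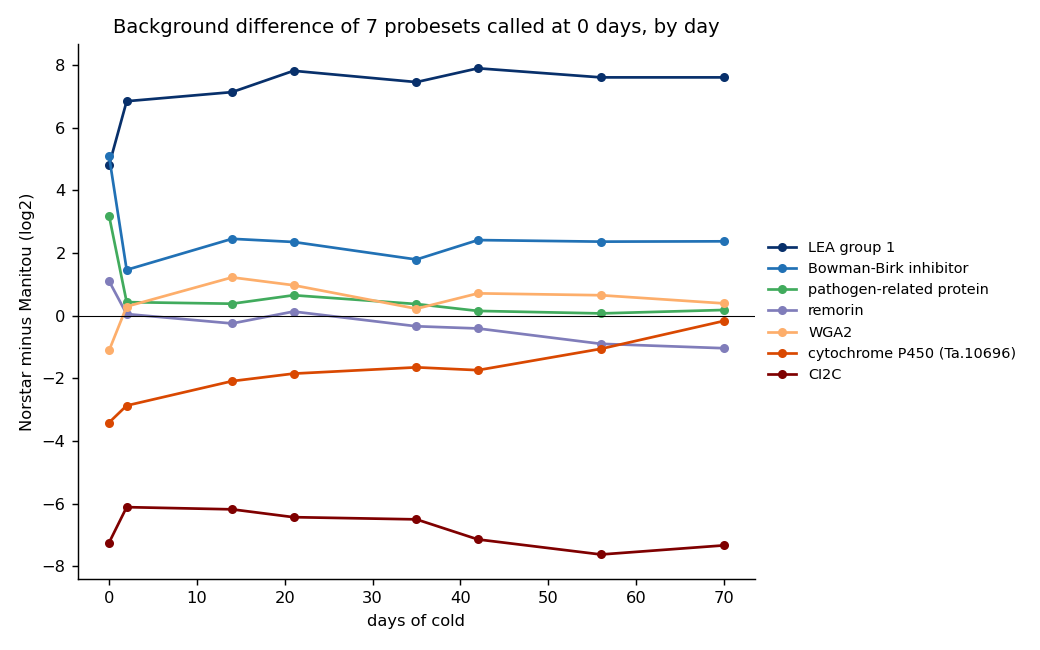
Norstar minus Manitou (y axis, log2, mean of winter and spring lines) against days of cold (x axis) for 7 named probesets called at 0 days; each point rests on 12 arrays. CI2C and LEA group 1 keep differences of over 4 log2 units throughout, the pathogen-related protein lies between 0.07 and 0.65 from 2 days, and WGA2 and remorin cross 0.

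Of the 720 tested probesets of the platform annotation, most of which have a chromosome in RefSeq, 7 were higher in Norstar and 11 were higher in Manitou. The 18 lay on 12 chromosomes with at most 2 on any 1, and 1 of 50 tested on chromosome 5A, which carries Vrn-A1, was called, phosphate transporter 6 (-1.01, adjusted p = 0.0058), which missed the thresholds in 9 of the 12 fits that left out 1 array. Both probesets of a jacalin-like lectin on 2B were higher in Manitou, at -2.61 and -2.53, and an indole synthase gene on 4A was also higher there, at -1.59. Expansin EXPB9 on 6A and a metallothionein on 3D, a metal-binding protein, were higher in Norstar, at 1.87 and 1.78. These chromosomes are those of the gene in the reference annotation, and the copy measured by a probeset may be another.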

How the data were processed

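RNA from wheat crowns was hybridized to Affymetrix Wheat GeneChips. The authors normalized the arrays with RMA and deposited log2 values for all 96. Per the labels the 3 arrays of a line are biological replicates. The 111 control probesets were dropped, as were probesets named _x_at or _s_at (7595 of 38304 bright ones), which can bind several transcripts, and a probeset was tested where the mean of at least 1 of the 4 lines at 0 days reached a log2 value of 5. The number of arrays limits the precision.

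A model with 4 line means was fitted to the 12 arrays in limma 3.58.1 (R 4.3.3), with contrasts for background, habit, their interaction and each pair, and Benjamini-Hochberg adjustment over 30709 probesets. A call was an adjusted p under 0.01 and 2-fold, or an adjusted p under 0.01 for the interaction. Cold days came from 1 fit to all 96 arrays. The steps were tested on simulated data, in which the arrays were independent and had no replicate effect. The simulation therefore cannot show how the fit behaves where same-numbered arrays deviate together. Values were summarized in Python 3.11.15.

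Same-numbered arrays deviated together (r from 0.329 to 0.759 over 18 pairs of arrays), and the design text of the series names random blocks. The numbers were therefore taken to pair the arrays in an alternative fit with the replicate number as a block. The main fit had no block and left this pairing out.

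Probesets were named from descriptions in the study's supplementary list, held here only in part, and from the platform annotation through RefSeq symbols. The rule for probesets in the text took, among calls without overlap, the 15 largest with a name and the 5 largest without one in each direction, the cold, vernalization and dynamic genes that the study discusses, the interaction calls and the 3 members of each list with the smallest p. Other list members were chosen after their values were seen. The members, lists and rules were chosen with earlier results of these data known. Alternatives were another brightness limit, probeset filter, spread model, block, threshold and arrays left out. Probe and gene sequences were not used here.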

Additional observations from a re-analysis of the deposited data

Results flagged for a closer look

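For 3 probesets without a gene name the difference between the Norstar and Manitou backgrounds was not the same in winter and spring lines, by the interaction test in limma. The background difference was larger in the winter lines by 2.69 for the first (3.33 against 0.64, adjusted p = 0.0013), by 1.58 for the next (1.66 against 0.08, adjusted p = 0.0040) and by 1.54 for the last (2.66 against 1.13, adjusted p = 0.0040), on the log2 scale with 3 arrays per line.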

How the results depend on the processing

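Of 58 called probesets among the 102 tested by name, 50 kept their call under every one of the 28 alternatives that tested them. With no limit on size, 1816 probesets were higher in Norstar, 1855 higher in Manitou, 2085 differed in the winter pair, 2096 in the spring pair and 6 by habit. The habit count of 3 became 9 with all 96 arrays, 7 with the replicate block, 7 with array quality weights, 7 at an adjusted p under 0.05 and 1 with gene-specific ANOVA, and 1, 1 and 0 without replicates 1, 2 and 3, whereas the interaction count of 3 became 11 with all 96 arrays and 0 with ANOVA. The replicate block changed no other call among the named probesets beside those given with COR14a and the dehydrin. Leaving out arrays gave 569 to 629 probesets higher in Norstar, 378 to 511 higher in Manitou, 737 to 1051 in the winter pair, 736 to 1037 in the spring pair, 0 to 4 for habit, 0 to 2 for the interaction and 630 to 662 called the same way on every cold day. The signs of 4 uncalled values turned when arrays were left out: BLT14.1 (-0.12 to 0.53), Vrn-A1 (-0.19 to 0.20), an unknown probeset that the study lists (-0.35 to 0.12) and a protamine probeset (-0.11 to 0.04); the cause was not tested. Signals near or under 5 limit the size of a difference that the arrays can show.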
